A study of Homo sapiens with 47 samples.

Results

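Solute carriers were followed across the conversion of WA09 (H9) human embryonic stem cells, an established line, into neuromesodermal progenitor-like (NMP-like) cells and then into passaged pre-neural progenitor and neural crest cultures. The set held the protein-coding genes whose symbol begins with SLC and a digit and whose mean level, in TPM (a level scaled to transcript length and library size), reached 5 in at least 1 of 16 conditions. Of 374 such genes, 208 met this threshold, beside 12418 protein-coding genes in all and 58051 genes in the files. They are called carriers here, although 5 of them (*SLC9A3R1*, *SLC9A3R2*, *SLC2A4RG*, *SLC4A1AP* and *SLC7A6OS*) carry the symbol without being transporters and are included in every count over the 208. The levels that chose the members are given as a description, and counts over the members are not offered as support for a change.

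Undifferentiated cells (t0) were grown on Matrigel in mTESR1. For 36 h they were held in N2B27 lacking vitamin A, to which CHIR-99021 (a WNT pathway agonist), rhFGF2, AGN193109 (an inverse agonist of retinoic acid receptors) and Y-27632 (a ROCK inhibitor) were added, giving the 36h NMP-like cells. The same 4 additions were present from P1 to P10, while cells were replated at each passage. The paper states that more Y-27632 was needed in the first 3 passages than at other times. Its dose and passage number therefore cannot be told apart. There were 3 differentiations, numbered 1 to 3 (the series holds P9 libraries of differentiations 1 and 2 only), giving 35 whole-culture libraries. A further 12 libraries came from epithelial (EPI) and mesenchymal (MES) fractions of P5 and P8, which were enriched by selective detachment with TrypLE rather than sorted on a marker. Every library came from 1 cell line. Time in culture and passage number cannot be told apart, and t0 differed from all later conditions in its medium. In bulk RNA, fewer cells of a type and less RNA per cell cannot be told apart.

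The libraries held between 13029491 and 64082859 expected counts in total (median 47292229). In many libraries the total exceeds the reads per sample given in the submitters' protocol, and this was not resolved. *POU5F1*, a pluripotency gene, stood at 1569 to 1749 TPM at t0 and at 0 to 0.21 TPM at P8, but the P1 culture of differentiation 1 still held 863 TPM against 18.7 and 5.07 TPM in differentiations 2 and 3. At P5, *SOX2* was higher in every EPI library than in any MES library (mean 214 against 65.7 TPM) and *TWIST1* was higher in every MES library (76.1 against 259 TPM). At P8 the means of *SOX2* were 183 and 104 TPM, and the libraries of the fractions overlapped. The crest gene *SNAI2* had means of 36.3 and 106 TPM in P5 EPI and MES, without overlap, and of 91.2 and 158 TPM in P8 EPI and MES, with overlap. *EPCAM* (3.92 and 1.45 TPM in P5 EPI and MES) and *CDH1* (0.12 and 0.13 TPM), both epithelial adhesion genes, were near 0 in both P5 fractions.

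Solute carriers move amino acids, sugars, ions, vitamins, nucleotides and metals across the plasma membrane and the membranes of mitochondria, Golgi, lysosomes and synaptic vesicles. Many work as exchangers or are driven by sodium or proton gradients, and the heavy chain encoded by *SLC3A2* brings several light chains of the SLC7 family to the cell surface. Pluripotent and other rapidly dividing cells are known for high uptake of glucose and amino acids and for lactate release. Several amino acid carrier genes are known targets of ATF4, the transcription factor of the amino acid response.

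The upstream sequences of a pair of amino acid carriers are shown because both genes are studied as targets of the amino acid response. *SLC1A5* was called in several comparisons, and *SLC7A5* only between P1 and P5. They are the 250 bases before the annotated start, 5′ to 3′ on the gene strand, from RefSeq (GRCh38.p14). *SLC7A5* (large neutral amino acid exchanger, minus strand) has the window chr16:87869508-87869757, and *SLC1A5* (neutral amino acid and glutamine exchanger, minus strand) has chr19:46788595-46788844. A 30-base stretch before an alternative *SLC1A5* start, chr19:46784893-46784922, has in capitals its match to TGATGNAA, the letters searched as the composite element bound by ATF4.
SLC7A5: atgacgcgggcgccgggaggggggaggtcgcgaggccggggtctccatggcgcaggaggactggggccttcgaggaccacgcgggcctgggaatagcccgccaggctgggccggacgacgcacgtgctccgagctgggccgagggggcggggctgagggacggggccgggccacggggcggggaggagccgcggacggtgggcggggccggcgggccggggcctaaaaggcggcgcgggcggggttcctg
SLC1A5: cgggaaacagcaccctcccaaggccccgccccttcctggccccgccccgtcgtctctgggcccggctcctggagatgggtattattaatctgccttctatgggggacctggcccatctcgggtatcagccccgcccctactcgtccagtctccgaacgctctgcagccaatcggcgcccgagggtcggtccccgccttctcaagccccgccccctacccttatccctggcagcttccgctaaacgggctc
SLC1A5 alternative start: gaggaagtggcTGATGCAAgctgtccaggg

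In that stretch the first base of the match lies 97 bases before the alternative start and on the gene strand, while neither printed 250-base window held a match on either strand. The window of that stretch overlaps an annotated exon on the same strand, and so does the window of a further *SLC1A5* start, which held no match. Of the 208 carriers, 166 had at least 1 window, and 4 of them held a match (*SLC1A3*, *SLC1A5*, *SLC25A11* and *SLC27A5*), which is 2.41%. Among all 27305 genes with a window the share was 3.89%. Per window, it was 1.57% of the 255 windows of the carriers and 3.14% of all 35116. Of 25 amino acid carriers with a window, 2 held a match. A match is a string of letters, not a measured binding site, and its absence says only that these letters are not in the window.

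As a level, the carriers made up 9477 ± 338 TPM at t0 (SD, n = 3), 7048 ± 125 TPM at P4, 7661 ± 393 TPM at P8, 8733 and 9256 TPM in the P9 libraries and 8240 ± 443 TPM at P10. *SLC25A3*, the mitochondrial phosphate carrier (chr12:98593591-98606379, gene positions being those of GENCODE 29 on GRCh38), was the most abundant, with condition means from 648 to 873 TPM. It was followed, on the mean of the conditions, by the ADP/ATP exchanger *SLC25A6* (419 TPM), the glucose carrier *SLC2A3* (366 TPM) and a further ADP/ATP exchanger, *SLC25A5* (330 TPM). Reads of *SLC25A5*, *SLC25A6* and *SLC2A3* can be shared with near-identical copies, so their levels are uncertain. Of the 208 members, 140 stood at or over 5 TPM in all 16 conditions and 13 in exactly 1 condition, 72 varied less than 2-fold between their lowest and highest condition mean, and 31 varied at least 10-fold. The highest condition was t0 for 60 carriers and P9 for 41, and the lowest was t0 for 49 and P9 for 34. Just inside the threshold lay *SLC51A* (5.23 TPM at t0), *SLC19A3* (5.34) and *SLC8A1* (5.45 at P2), and just outside it *SLC16A10* (4.97 at P7), *SLC2A12* (4.94) and *SLC2A4* (4.88).

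The transport groups had different time courses as summed levels. Amino acid carriers (31 genes) summed to 1960 ± 134 TPM at t0, to between 1055 and 2456 TPM at P2, to 1019 ± 63.5 TPM at P4 and to 1061 ± 91.8 TPM at P8. They reached 2643 and 3096 TPM in the P9 libraries and lay between 1199 and 2256 TPM at P10. The 25 nucleotide sugar and Golgi carriers went the other way, from 488 ± 27.4 TPM at t0 to 794 ± 51.8 TPM at P8. The 40 mitochondrial carriers had condition means between 2544 and 2709 TPM throughout, and the 16 zinc carriers had 920 ± 41.8 TPM at t0 and 763 ± 50.1 TPM at P8. These sums are descriptions (SD over 3 differentiations) and were not tested.

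**Figure D1:**
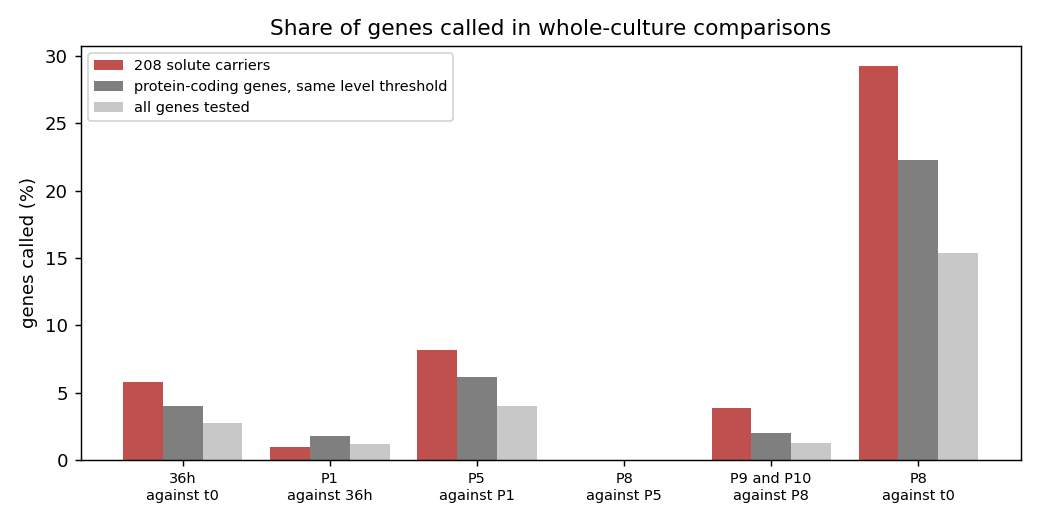
Bars give the percentage of genes called in 6 whole-culture comparisons (x axis) among the 208 solute carriers, among protein-coding genes that meet the same level threshold, and among all genes tested. For P8 against t0 the bars stand at 29.3%, 22.3% and 15.4%, and for P8 against P5 they are at or near 0.

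Changes between conditions were taken from edgeR's quasi-likelihood test over all genes. A gene was called where its false discovery rate (FDR, Benjamini-Hochberg) lay under 1%, its level changed 2-fold or more, and its mean was 100 normalised counts or higher, and "rose" and "fell" are kept for such calls. The ± after a log2 fold change is its standard error. Which carriers moved at NMP induction was asked by comparing 36h with t0. After 36 h, 4 of 208 carriers rose and 8 fell, that is 5.77%, beside 2.72% of all genes tested and 4.02% of protein-coding genes meeting the same level threshold. Of 16 zinc carriers 1 rose, 2 fell and 13 were not called. The vesicular nucleotide carrier *SLC17A9* and the fatty acid carrier *SLC27A2* fell. Of 40 mitochondrial carriers 0 were called.

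*SLC39A8*, a zinc and manganese importer (chr4:102251041-102431258), stood at 14.2, 14.5 and 11.7 TPM at t0 in differentiations 1 to 3 and at 29.4, 107 and 182 TPM at 36h. All 36h libraries were above all t0 libraries, with a wide spread at 36h (log2 3.20 ± 0.64, adjusted p = 0.00161). Its log2 was 3.35 without differentiation 2 and 2.31 without differentiation 3. *SLC47A1*, an exporter of organic cations in exchange for protons, went from 1.6, 1.98 and 3.13 TPM to 12.7, 11.1 and 5.26 TPM (log2 2.07 ± 0.46, adjusted p = 0.00398), again without overlap. *SLC35G1* (1.07 ± 0.16) and *SLC35F6* (1.02 ± 0.17), members of the nucleotide sugar carrier family, also rose. Among the falls, the zinc importer *SLC39A10* went from 165, 152 and 139 TPM to 54.4, 64.6 and 67.7 TPM (log2 -1.28 ± 0.21, adjusted p = 0.000243). *SLC27A2* went from 7.4, 7.39 and 6.23 TPM to 1.71, 1 and 0.11 TPM (log2 -3.63 ± 0.80, adjusted p = 0.00381). Without differentiations 2 and 3 its log2 was -3.95 and -2.80. The other falls were *SLC17A9* (-2.27), *SLC37A1* (-1.53), the cationic amino acid carrier *SLC7A2* (-1.37), the bicarbonate carrier *SLC4A8* (-1.14), the choline carrier *SLC44A1* (-1.08) and *SLC39A11* (-1.07). The count was 20 without differentiation 1, 0 without differentiation 2 and 1 (*SLC39A10*) without differentiation 3. *SLC39A11* and *SLC44A1* (-1.09) were lost without differentiation 1 too, and so were called in none of these fits. It was 6 without the replicate block and 2 in a fit of only the compared libraries.

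From 36h to P1 only *SLC47A1* (log2 -2.46 ± 0.46, adjusted p = 0.00254) and *SLC16A5*, a member of the monocarboxylate family (-1.67 ± 0.36, adjusted p = 0.00623), fell and no carrier rose (0.962% of carriers, beside 1.2% of all genes and 1.76% at the same level threshold). *SLC47A1* at P1 read 5.44, 1.28 and 0.69 TPM. Without the P1 library of differentiation 1, the one with 863 TPM of *POU5F1*, 10 carriers were called. Leaving out differentiation 1 as a whole gave 13 calls, and leaving out differentiation 2 or 3 gave 0. Without the replicate block 1 was called, and in a fit of only the compared libraries 0.

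Between P1 and P5, 5 carriers rose and 12 fell, 8.17% of carriers beside 4.01% of all genes and 6.16% at the same level threshold. *SLC18A1*, the vesicular monoamine transporter of endocrine cells, was at 0 in all t0 and 36h libraries and at 0.04, 0 and 0.02 TPM at P1. At P5 it read 10.7, 9.62 and 5.22 TPM, at least 107.5-fold higher than at P1, where 3 counts per library set the floor. It then read 3.51, 2.19 and 1.2 TPM at P8, 0 and 0.05 TPM at P9, and 3.8, 0.05 and 0 TPM at P10. Its rise was therefore followed by lower values, and at P10 only the library of differentiation 1 was over 1 TPM. *SLC25A12*, the mitochondrial aspartate-glutamate carrier, went from 12.5, 3.61 and 4.44 TPM to 19.8, 18 and 16.1 TPM (log2 1.35 ± 0.32, adjusted p = 0.00526). *SLC35G2* (1.71 ± 0.36), the anion exchanger *SLC4A3* (1.26 ± 0.25) and *SLC4A8* (1.08 ± 0.28) rose as well. Over the same passages 4 markers of NMP-like cells went from summed levels of 248 to 873 TPM at P1 to 6.71 to 11 TPM at P5, and 4 of paraxial mesoderm from 7.57 to 363 TPM to 2.56 to 3.79 TPM. Their part in the carrier results was not tested.

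The falls from P1 to P5 held 4 of 31 amino acid carriers. *SLC7A5* (chr16:87830023-87869488) went from 183, 77.5 and 203 TPM to 29.6, 31.3 and 34 TPM (log2 -2.35 ± 0.61, adjusted p = 0.00935). *SLC6A15*, a neutral amino acid carrier (-2.26 ± 0.47), *SLC7A3*, a cationic one (-1.85 ± 0.48), and *SLC1A5* (-1.16 ± 0.25) fell too. The lactate exporter *SLC16A3* went from 6.74, 13.2 and 33.8 TPM to 1.09, 1.62 and 1.96 TPM (log2 -3.82 ± 0.81, adjusted p = 0.00233), and the sodium-calcium exchanger *SLC8A2* fell by 3.88 ± 0.60 on the log2 scale. The remaining falls were *SLC12A8*, *SLC4A11*, *SLC16A13*, *SLC9A3R1* (not a carrier), *SLC29A2* and *SLC25A29*, from -2.22 to -1.19. Without differentiation 2 or 3 no carrier was called, while without differentiation 1 the count was 17, with the calls of *SLC35G2* (1.68), *SLC4A8*, *SLC16A13* (-1.22), *SLC9A3R1* (-1.19), *SLC12A8* and *SLC7A5* lost. These 6 were thus called in no fit that left out a differentiation. *SLC7A5* had log2 values of -2.19, -2.76 and -2.12 without differentiations 1, 2 and 3. Without differentiations 2 and 3, *SLC16A3* had -4.11 and -2.75, and *SLC6A15* had -2.31 and -1.53. Without only the P1 library of differentiation 1, the one with 863 TPM of *POU5F1*, the count was 17, but *SLC12A8* moved to -0.91 (-0.98 without differentiation 1) and it, *SLC4A11* (-1.77), *SLC16A13* (-1.27), *SLC8A2* (-4.12) and *SLC7A5* (-2.30) lost their calls. The count was 10 without the replicate block and 0 in a fit of only the compared libraries.

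Passages P5 to P8 gave no calls. For P8 against P5, 0 of 208 carriers passed in edgeR (0.00924% of all genes and 0.0161% at the same level threshold), 30 had an unadjusted p under 0.05 and DESeq2 called 2 (0.663% of all genes). Each step between neighbouring passages from P1 to P8 also gave 0 calls in edgeR (beside 0.0277% of all genes for P2 against P1, 0.00924% for P3 against P2 and 0.0% for the later steps), with 38, 35, 19, 4, 3, 1 and 3 carriers at an unadjusted p under 0.05 from the first step to the last. DESeq2 called 2, 1 and 1 carriers in the first 3 of these steps and 0 in the others.

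**Figure D2:**
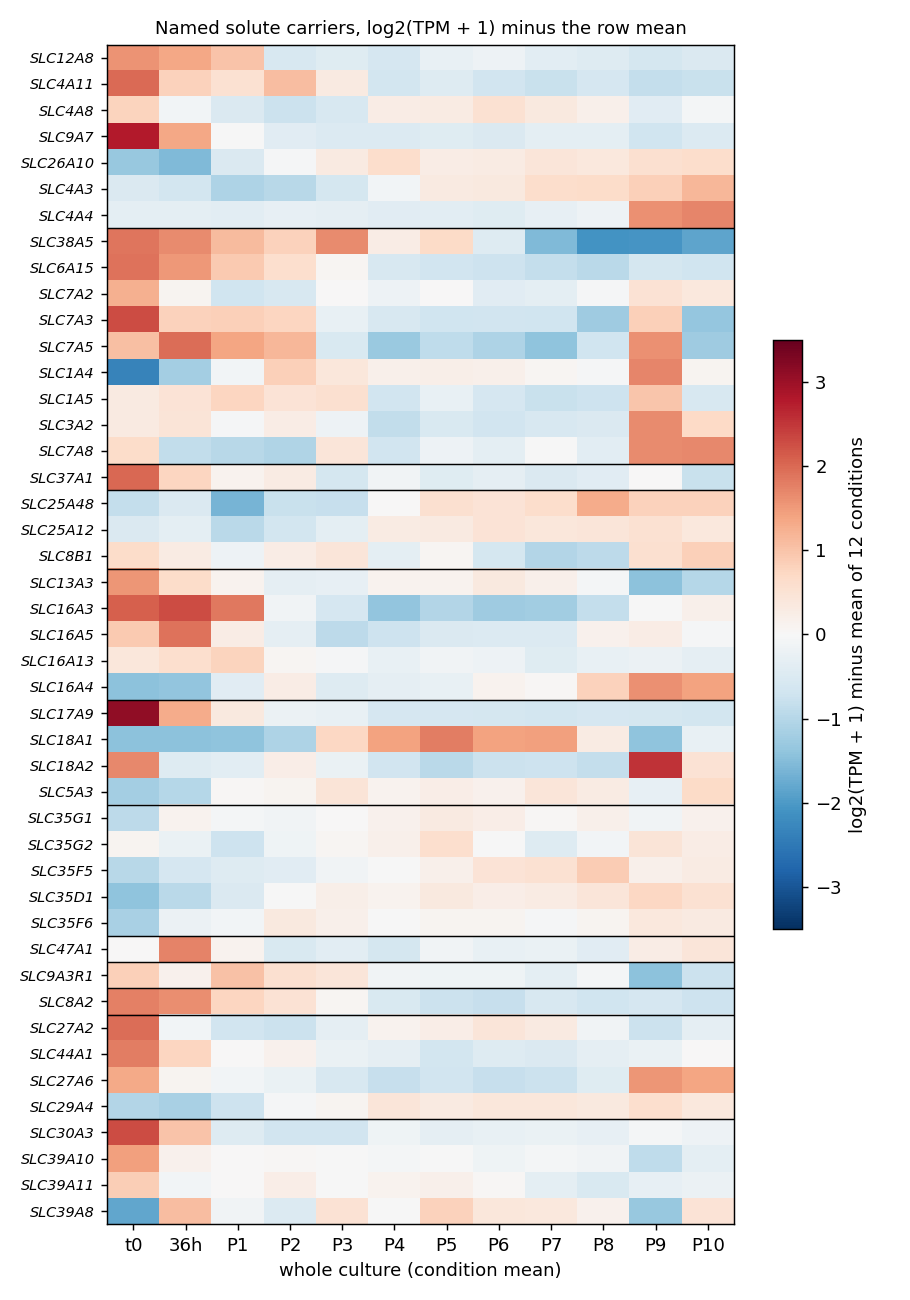
Rows are 45 named solute carriers, grouped by transport role, and columns are the 12 whole-culture conditions, and colour gives log2(TPM + 1) of the condition mean minus the row mean. Rows that are red at t0 and blue from P4 to P8, such as *SLC7A3* and *SLC17A9*, have their highest means before passaging, and rows that are red late, such as *SLC35D1* and *SLC16A4*, have their lowest there.

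The whole span was read by comparing P8 with t0, which shares the t0 libraries with the 36h comparison. In this comparison 16 carriers rose and 45 fell, 29.3% of 208, beside 15.4% of all genes and 22.3% at the same level threshold. Among all genes 7.38% were higher and 8.03% lower, and the median log2 fold change was -0.18 over the carriers and -0.01 over all genes. Called members of the amino acid, neurotransmitter and vitamin or nucleoside groups mostly fell. Those of the nucleotide sugar and Golgi group mostly rose (4 higher, 1 lower). That group follows gene family, and what its members carry was not tested. The counts without differentiations 1, 2 and 3 were 70, 33 and 37, and 27 of the 61 carriers stayed called whichever differentiation was left out, among them *SLC7A3*, *SLC38A5*, *SLC16A1*, *SLC17A9*, *SLC39A14*, *SLC35D1* and *SLC44A1*. Summed over 4 markers of pluripotent cells, the level went from 2744 to 3114 TPM at t0 to 43.75 to 96.5 TPM at P8. Over 8 neural crest or mesenchymal markers it went from 49.2 to 55.2 TPM to 151 to 868 TPM. The part of these markers in the carrier results was not tested.

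Of 31 amino acid carriers 10 fell and 1 rose, with a median log2 of -1.02. *SLC7A3* stood at 100, 116 and 95.2 TPM at t0 and at 12.3, 4.82 and 7.19 TPM at P8 (log2 -3.95 ± 0.52, adjusted p = 1.56e-06). *SLC38A5*, a glutamine carrier, went from 35.1, 31.4 and 29.4 TPM to 1.21, 0.75 and 1.36 TPM (log2 -5.26 ± 0.92, adjusted p = 5.26e-05). Neither gene had overlapping groups. *SLC1A5* went from 253, 214 and 234 TPM to 119, 118 and 100 TPM (log2 -1.19 ± 0.25, adjusted p = 0.000392), and the sodium-coupled neutral amino acid carrier *SLC38A2* fell by 1.02 ± 0.19 on the log2 scale. The gene that rose was *SLC1A4*, a carrier of serine and alanine, from 1.33, 1.02 and 1.75 TPM to 9.25, 7.93 and 14.6 TPM (log2 2.85 ± 0.65, adjusted p = 0.000843). *SLC7A5* (-1.88, adjusted p = 0.0112), *SLC3A2* (-1.02, adjusted p = 0.0176) and *SLC7A8*, a neutral amino acid light chain (-1.29, adjusted p = 0.0318), did not pass. Without differentiation 2, *SLC1A5* (-1.30), *SLC38A2* (-0.94) and *SLC1A4* (2.80) were no longer called. Of 19 tested genes on a list of amino acid response genes, 6 fell and 0 rose in the same comparison, *CHAC1*, *PHGDH*, *VLDLR*, *CTH*, *CBS* and *PCK2*, and their part in the result was not tested.

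For lactate and glucose, *SLC16A1* (chr1:112911847-112957013), the main monocarboxylate carrier, went from 400, 382 and 368 TPM at t0 to 153, 157 and 136 TPM at P8 (log2 -1.52 ± 0.15, adjusted p = 3.13e-08). It had reached 141, 144 and 158 TPM by P5. *SLC16A3* stood at 4.61, 53.3 and 5.69 TPM at t0 and at 1.37, 2.55 and 1.87 TPM at P8 (log2 -3.63 ± 0.80, adjusted p = 0.000651). Its t0 level in differentiation 2 was far above the others, though every t0 library was above every P8 library. The glucose carrier *SLC2A1* was not called (log2 -1.44, adjusted p = 0.0383) and read 184, 644 and 205 TPM at t0 and 121, 238 and 78.3 TPM at P8, so that the groups overlapped. The t0 library of differentiation 2 also had 4935 TPM summed over 20 hypoxia response genes, against 2137 and 1853 TPM in the other t0 libraries, and 9 of these genes fell and 1 rose by P8 (*EGLN3* -4.94, *ENO2* -4.40, *ALDOC* -2.46, *HK2* -2.40). That sum is 1678 TPM in the P1 library of differentiation 1, where *SLC2A1* (718 TPM) and *SLC2A3* (1525 TPM) had their highest levels of the series. The part of the hypoxia genes in these levels was not tested. Of 14 carriers grouped by gene family as glucose and hexose carriers, 2 fell (*SLC37A1* and *SLC2A13*) and 0 rose. What these 2 carry was not tested, and their falls are not read as lower glucose transport. *SLC16A4*, a member of the monocarboxylate family whose substrate is poorly known, rose by a log2 of 3.82 ± 0.66. The call of *SLC16A4* (3.08 and 3.29) was lost without differentiation 2 and without 3, that of *SLC16A3* (-2.13) without 2, and that of *SLC2A13* (-1.03 and -1.21) without either.

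**Figure D3:**
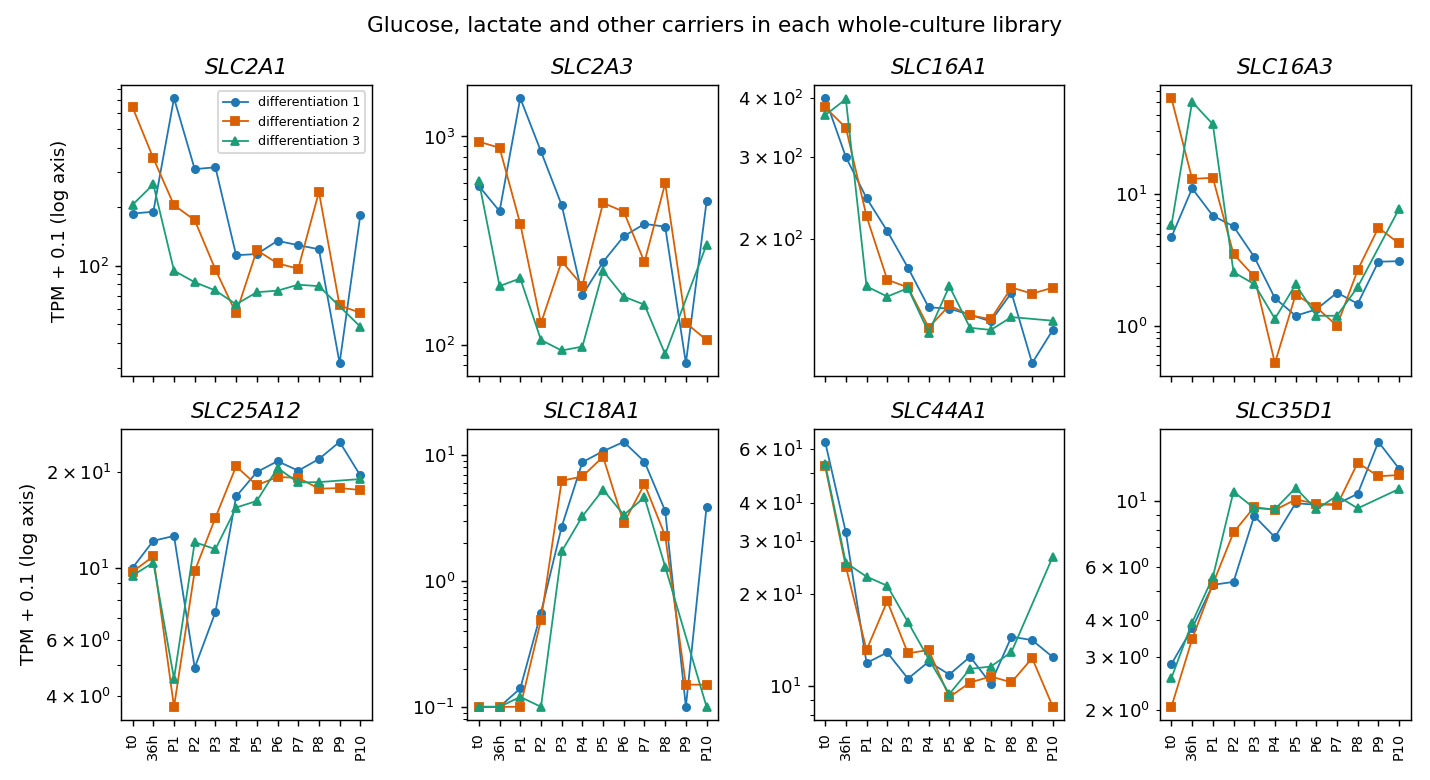
Each panel shows 1 carrier, with whole-culture conditions on the x axis, TPM + 0.1 on a log axis and a line for each of the 3 differentiations (P9 has 2). *SLC16A1* falls along similar lines in all 3, *SLC2A1* and *SLC2A3* peak in different conditions in different differentiations, and *SLC18A1* is detected mainly between P3 and P8.

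Among the 9 neurotransmitter, osmolyte and vesicular carriers 5 fell and 1 rose. *SLC17A9*, which loads ATP into vesicles, stood at 12.2, 12.6 and 12.8 TPM at t0, at 3.29, 2.48 and 2.83 TPM at 36h and at 0.02, 0.01 and 0.16 TPM at P8. With 1 to 3 counts in each P8 library, it was at least 291.6-fold lower. *SLC18A2*, the vesicular monoamine transporter of neurons, went from 5.63, 5.66 and 5.69 TPM to 0.07, 0.25 and 0.14 TPM (log2 -5.62 ± 1.47, adjusted p = 0.00285), and its P9 libraries then read 0.03 and 21.9 TPM. The taurine carrier *SLC6A6* (-1.49 ± 0.40) and the creatine carrier *SLC6A8* (-1.09 ± 0.20) fell, and the myo-inositol carrier *SLC5A3* rose (1.43 ± 0.36), from 8.83, 6.94 and 9.87 TPM to 30, 23.3 and 23.2 TPM. The calls of *SLC6A6* (-1.68 and -1.26) and *SLC5A3* (1.35 and 1.60) were lost without differentiation 2 and without 3, that of *SLC6A8* (-0.90) without 2, and that of *SLC18A2* (-5.76) without 3.

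Among 16 zinc carriers 4 fell and 0 rose. *SLC39A14*, a zinc and iron importer, went from 157, 132 and 146 TPM at t0 to 51.1, 23.6 and 20.5 TPM at P8 (log2 -2.43 ± 0.31, adjusted p = 9.97e-07). *SLC39A10* (-1.74 ± 0.21), *SLC39A11* (-1.68 ± 0.22) and *SLC30A3*, the zinc carrier of synaptic vesicles (-4.12 ± 0.57), fell as well. *SLC39A8* read 54.7, 91.2 and 20.3 TPM at P8, above all t0 libraries, but was not called in this comparison.

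Of 25 nucleotide sugar and Golgi carriers 4 rose and 1 fell (median log2 0.50). *SLC35D1*, which brings UDP-sugars for glycosaminoglycans into the endoplasmic reticulum (chr1:66999332-67054099), went from 2.75, 1.95 and 2.46 TPM at t0 through 5.14, 5.17 and 5.46 TPM at P1 to 10.5, 13.3 and 9.34 TPM at P8 (log2 2.07 ± 0.16, adjusted p = 1.03e-09). Every library of a later condition among these was above every library of an earlier one. *SLC35F5* (1.59 ± 0.27), *SLC35F6* (1.20 ± 0.17) and *SLC35B2*, the Golgi carrier of the sulphate donor PAPS (1.14 ± 0.18), rose, and *SLC35F2* fell (-1.33 ± 0.34). *SLC35F2* was not called without differentiation 2 (-1.29) or 3 (-1.14), nor *SLC35B2* without 3 (0.96).

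In the vitamin, nucleoside, choline and lipid group 8 of 19 carriers fell and 1 rose. The choline carrier *SLC44A1* went from 63.2, 52.5 and 53.5 TPM at t0 to 14.4, 10.2 and 12.8 TPM at P8 (log2 -2.31 ± 0.27, adjusted p = 2.36e-07). The falls included the nucleoside carriers *SLC29A1* (-1.93 ± 0.45), *SLC29A2* (-1.03 ± 0.23) and *SLC29A3* (-2.36 ± 0.39) and the fatty acid carriers *SLC27A2* (-3.34 ± 0.78) and *SLC27A6* (-3.06 ± 0.71), while *SLC29A4*, a monoamine carrier of the same family, rose (1.43 ± 0.19). Without differentiation 2 or 3 the calls of *SLC29A1* (-1.85 and -1.78), *SLC29A2* (-0.97 and -0.90), *SLC27A2* (-3.26 and -3.12) and *SLC27A6* (-3.32 and -3.42) were lost, and without 2 that of *SLC29A3* (-2.19).

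Acid-base and chloride carriers were called in both directions, 3 higher and 5 lower of 23. *SLC4A7*, a sodium bicarbonate cotransporter, went from 64.9, 60.8 and 66.8 TPM to 26.1, 23.9 and 23.9 TPM (log2 -1.48 ± 0.15, adjusted p = 5.1e-08), and *SLC9A7*, a sodium-proton exchanger of the trans-Golgi, fell by 4.85 ± 0.82 on the log2 scale. *SLC26A10* (2.31 ± 0.52), the chloride and sulphate carrier *SLC26A11* (1.17 ± 0.33) and *SLC4A3* (1.10 ± 0.25) rose. Of 40 mitochondrial carriers 3 rose (*SLC25A48*, *SLC25A24* and *SLC25A46*) and 5 fell, among them the sodium-calcium exchanger *SLC8B1*, which went from 9.69, 10 and 11.5 TPM to 2.06, 2.31 and 4.23 TPM. *SLC8A2* of the plasma membrane fell by 5.07 ± 0.63 on the log2 scale. In the same comparison 4 of 8 carriers of the separate SLCO family fell, and of 24 partners and regulators of carriers 5 fell and 1 rose. The latter was *MPC1*, a subunit of the mitochondrial pyruvate carrier (log2 1.49). The falls were *EMB*, *CA12* and the metallothionein genes *MT1X*, *MT1E* and *MT1G*, and their part in the carrier results was not tested. Without differentiation 2 or 3 the calls of *SLC26A10* (2.11 and 2.35), *SLC4A3* (0.95 and 1.17) and *SLC25A24* (1.11 and 1.12) were lost, without 1 or 3 that of *SLC25A48* (2.33 and 2.69), and without 2 that of *SLC8B1* (-2.13). The call of *SLC26A11* was lost whichever differentiation was left out (1.28, 0.72 and 1.46 without 1, 2 and 3).

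**Figure D4:**
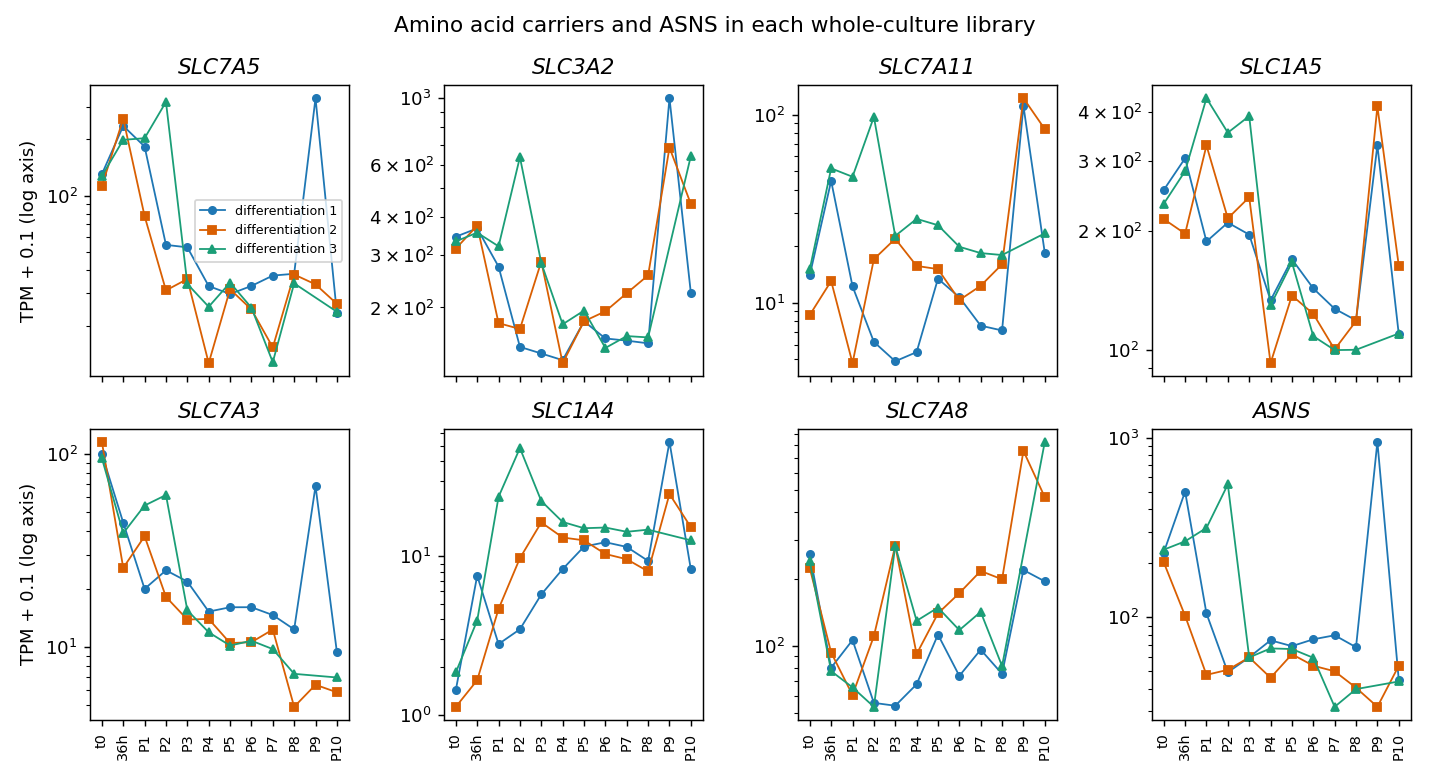
Each panel shows 1 of 7 amino acid carriers, or *ASNS* (asparagine synthetase), with whole-culture conditions on the x axis, TPM + 0.1 on a log axis and a line for each differentiation. *SLC7A5* and *ASNS* peak together in P2 of differentiation 3 (317 and 549 TPM) and P9 of differentiation 1 (332 and 947 TPM), while *SLC7A8* is highest in P9 of differentiation 2 and P10 of differentiation 3.

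The latest passages were read as P9 and P10 together against P8, and separately, and these comparisons share their libraries. Jointly, 6 carriers rose and 2 fell, 1 of the falls being the non-carrier *SLC9A3R1*, 3.85% of carriers beside 1.25% of all genes and 2.0% at the same level threshold. Of 31 amino acid carriers 3 rose and none fell. *SLC3A2* (chr11:62856102-62888875) stood at 152, 256 and 159 TPM at P8, at 1001 and 684 TPM at P9 and at 224, 444 and 642 TPM at P10 (log2 1.75 ± 0.33, adjusted p = 0.00328). *SLC7A8* (chr14:23125295-23183674), one of its light chains, stood at 75, 200 and 81.3 TPM at P8, at 220 and 752 TPM at P9 and at 195, 467 and 826 TPM at P10 (log2 2.13 ± 0.47, adjusted p = 0.00716). *SLC1A5* stood at 119, 118 and 100 TPM, then at 329 and 412 TPM, and then at 110, 163 and 110 TPM (log2 1.02 ± 0.23, adjusted p = 0.00815). In P9 both libraries of *SLC3A2* and *SLC1A5* were above all P8 libraries, whereas at P10 the ranges overlapped those of P8. Within every differentiation *SLC3A2* was higher at P10 than at P8, whereas *SLC1A5* was lower at P10 in differentiation 1. Without the replicate block, or in a fit of only the compared libraries, 0 carriers were called in the joint comparison.

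Markers of cell types moved over the same passages. Summed over 6 markers of pre-neural epithelium, the level lay between 200.2 and 781 TPM at P8, between 32 and 36.2 TPM at P9 and between 15.5 and 446 TPM at P10. Summed over 8 neural crest or mesenchymal markers it lay between 151 and 868 TPM at P8, between 1092 and 1126 TPM at P9 and between 249 and 991 TPM at P10. Summed over 4 neuron markers it lay between 173 and 233 TPM at P8, between 158 and 462 TPM at P9 and between 281 and 449 TPM at P10. *SOX2* read 320, 132 and 100 TPM at P8, 4.88 and 5.98 TPM at P9, and 214, 0.5 and 0.71 TPM at P10, so that only the P10 library of differentiation 1 lay in the range of P8. The part of these markers in the carrier results of P9 and P10 was not tested.

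The bicarbonate cotransporter *SLC4A4* went from 0.56, 0.58 and 1.96 TPM at P8 to 5 and 7.09 TPM at P9 and 0.94, 13.8 and 4.82 TPM at P10 (log2 2.77 ± 0.58, adjusted p = 0.00549). Of the 4 carbonic anhydrases (enzymes that make bicarbonate) listed as partners of carriers, *CA12* rose (log2 3.05, adjusted p = 0.00366), while *CA4* (-3.68, adjusted p = 0.0204), *CA14* (-2.04, adjusted p = 0.0106) and *CA2* (-1.13, adjusted p = 0.204) had lower values that did not pass. *SLC8B1* (2.13 ± 0.41) and *SLC27A6* (3.01 ± 0.68) rose, and both had fallen between t0 and P8, a comparison that shares the P8 libraries. *SLC13A3*, a sodium dicarboxylate cotransporter (chr20:46557823-46684467), fell from 5.68, 1.74 and 2.09 TPM at P8 to 0.65 and 0.6 TPM at P9 and 1.98, 1.03 and 0.61 TPM at P10 (log2 -2.44 ± 0.32, adjusted p = 0.000684). *SLC9A3R1*, a scaffold protein and not a carrier despite its symbol, fell as well (-1.13 ± 0.23).

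Against P8 alone, 6 carriers rose and 3 fell at P9, *SLC9A3R1* among the falls (4.33%, beside 1.21% of all genes). DESeq2 called 12 higher and 13 lower (3.61% of all genes), and at an FDR under 5% edgeR called 15 higher and 13 lower (4.14% of all genes). *SLC7A11*, the cystine-glutamate exchanger light chain, rose from 7.03, 15.9 and 17.9 TPM to 111 and 122 TPM (log2 3.62 ± 0.76, adjusted p = 0.00617), and read 18.3, 83.8 and 23.3 TPM at P10. In the joint comparison it was not called (2.73, adjusted p = 0.0126). *SLC15A3*, a lysosomal histidine and peptide carrier, fell from 10, 13.1 and 7.13 TPM to 1.52 and 0.68 TPM (log2 -3.21 ± 0.66, adjusted p = 0.00568). *SLC7A5* (2.12, adjusted p = 0.0424), *SLC1A4* (2.27, adjusted p = 0.0337), *SLC7A3* (2.09, adjusted p = 0.0156) and *SLC7A8* (2.10, adjusted p = 0.0165) did not pass. Without differentiation 1 the P9 group holds 1 library, so that the spread comes from other conditions and no calls are read. The log2 values there were 3.31 (*SLC7A11*), 1.88 (*SLC3A2*), 2.83 (*SLC4A4*), 1.98 (*SLC8B1*), 0.64 (*SLC38A2*) and -1.17 (*SLC9A3R1*). The P9 group also holds 1 library without differentiation 2 and without the P9 library of differentiation 1. Without differentiation 3, which has no P9 library, the P9 count was 0. It was 1 without the replicate block and 0 in a fit of only the compared libraries. P10 against P8 gave 0 carriers in edgeR (0.0878% of all genes), with 50 at an unadjusted p under 0.05 and 8 called by DESeq2 (1.29% of all genes), and P10 against P9 gave 0 (0.0% of all genes), with 40 at an unadjusted p under 0.05 and 1 called by DESeq2 (0.17% of all genes).

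The P9 libraries differed from each other. In differentiation 1 *SLC7A5* read 332 TPM, *SLC7A3* 68.2 TPM, *ASNS* 947 TPM and the glutathione-degrading enzyme *CHAC1* 156 TPM. In differentiation 2 the same genes read 33.3, 6.3, 31.7 and 2.65 TPM. Yet *SLC3A2*, *SLC7A11* and *SLC1A5* were high in both. Summed over 19 amino acid response genes, the level was 6831 TPM in the first of these libraries and 1379 TPM in the second. The next highest sums were 5117 TPM in P2 of differentiation 3, 4366 TPM in 36h of differentiation 1 and 3664 TPM in P1 of differentiation 3, and *SLC7A5* read 317, 236 and 203 TPM there. It also read 258 TPM in 36h of differentiation 2, where *ASNS* stood at 102 TPM. The part of the amino acid response genes in these levels was not tested.

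Without the P9 library of differentiation 1, P9 holds 1 library, so only log2 values of the joint comparison are read. They were 2.38 (*SLC7A8*), 2.10 (*SLC8B1*), -2.25 (*SLC13A3*), 1.57 (*SLC3A2*), 1.13 (*SLC1A5*), 2.78 (*SLC4A4*), 2.43 (*SLC27A6*) and -0.90 (*SLC9A3R1*). The log2 value of *SLC4A4* was 1.82 without differentiation 2 and 3.40 without differentiation 3. Without the P10 library of differentiation 1 the count was 19. Without differentiation 1 or 2, P9 again holds 1 library and no calls are read. The log2 values without differentiation 1 were 1.63 (*SLC3A2*), -2.32 (*SLC13A3*) and -1.12 (*SLC9A3R1*). Without differentiation 3, which has no P9 library, the joint count was 0.

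The fractions were compared within P5 and within P8, which asks whether the epithelial and mesenchymal cells of 1 culture differ in their carriers. No carrier of 206 tested was called at an FDR under 1% in either (0.0% of all genes in each), with 67 carriers at P5 and 20 at P8 at an unadjusted p under 0.05, and with DESeq2 calling 12 at P5 (3.44% of all genes) and 0 at P8. The paper, using DESeq2, did report genes that differed between the P5 fractions at an FDR under 1%. The 0 calls in edgeR hold for all genes and are not particular to carriers. At an FDR under 5%, a threshold chosen after seeing the data, 5 carriers were higher in P5 MES and 6 in P5 EPI, beside 2.52% of all genes and 3.56% at the same level threshold. The 11 carriers past that looser threshold are described by their levels in each fraction. Summed over 4 neuron markers, the level lay between 192 and 290 TPM in P5 EPI and between 76.4 and 163 TPM in P5 MES. Over 3 Schwann cell markers it lay between 13.35 and 17.6 TPM in P5 EPI and between 20.3 and 105 TPM in P5 MES. The part of these markers in the fraction results was not tested.

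Higher in P5 MES was *SLC22A23* (chr6:3268962-3457022), a member of the organic ion carrier family whose substrate is unknown, at 11.5, 19 and 30.3 TPM in EPI and 53.4, 46.4 and 58.8 TPM in MES (log2 1.52 ± 0.20, adjusted p = 0.014). *SLC7A11* read 4.76, 12.5 and 16.8 TPM in EPI and 39.7, 34 and 39.2 TPM in MES (log2 2.11 ± 0.51, adjusted p = 0.0433). In both genes every MES library lay above every EPI library. The sodium-calcium exchanger *SLC8A3* (2.21 ± 0.47), *SLC38A5* (1.73 ± 0.38) and *SLC35G2* (1.25 ± 0.29) were the others. *SLC38A5* was also the 1 carrier called when the MES fraction of P8 was compared with that of P5, at 50.9, 8.12 and 19.8 TPM in P5 MES and 1.93, 1.27 and 1.53 TPM in P8 MES (log2 -3.90 ± 0.42, adjusted p = 0.00516), or 0.485% of carriers beside 0.727% of all genes. In that comparison 75 carriers had an unadjusted p under 0.05, DESeq2 called 7 higher and 6 lower (3.8% of all genes), and at an FDR under 5% edgeR called 6 higher and 6 lower (3.16% of all genes). That call was lost without differentiation 2 (-4.03) or 3 (-4.13), without the replicate block and in a fit of only the compared libraries. For the EPI fractions the count was 0 in edgeR (0.261% of all genes), with 69 at an unadjusted p under 0.05 and 8 called by DESeq2 (3.09% of all genes).

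Higher in P5 EPI was *SLC18A1*, at 11.6, 11.1 and 6.67 TPM in EPI and 3.53, 3.69 and 1.23 TPM in MES (log2 -1.97 ± 0.31, adjusted p = 0.0168). *SLC35F3* read 20.5, 19.3 and 13.4 TPM in EPI and 7.27, 7.24 and 2.16 TPM in MES (log2 -1.73 ± 0.41, adjusted p = 0.0423). Here too the fractions did not overlap. *SLC16A9* (-1.35 ± 0.31), *SLC13A3* (-1.31 ± 0.31), *SLC25A21* (-1.04) and *SLC35F2* were the others.

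At P8 the 11 carriers had log2 values of the same sign as at P5, from 0.41 for *SLC35G2* to 0.92 for *SLC7A11* among the MES-higher and from -1.65 for *SLC18A1* to -0.20 for *SLC35F2* among the EPI-higher, but none had an adjusted p under 0.05. The change in the MES to EPI difference from P5 to P8, tested as an interaction, gave 0 carriers in edgeR (0.0% of all genes, 21 carriers at an unadjusted p under 0.05, DESeq2 0), with adjusted p from 0.844 to 0.949 for these 11. The libraries of the fractions also overlapped in *SOX2* and *SNAI2* at P8 but not at P5, and the part of this in the P8 values was not tested.

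**Figure D5:**
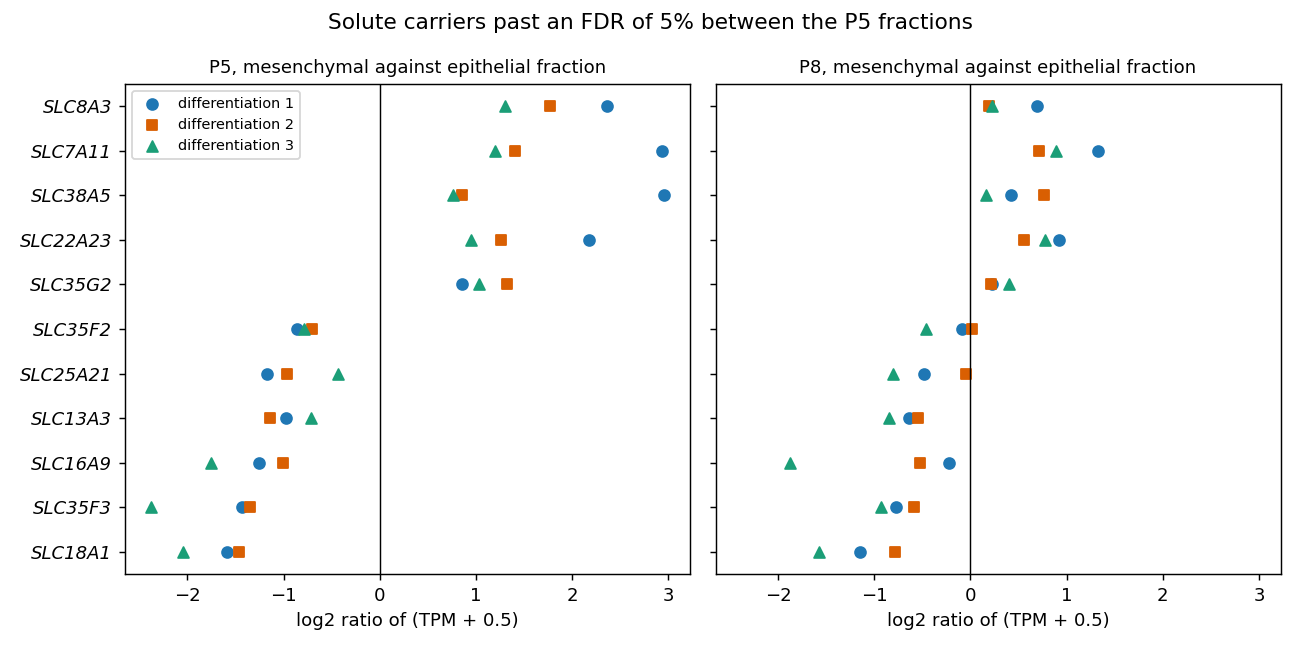
Each row is 1 of the 11 carriers past an FDR of 5% between the P5 fractions, and the x axis gives the log2 ratio of (TPM + 0.5) in the mesenchymal against the epithelial fraction, at P5 on the left and P8 on the right, with a point for each of 3 differentiations. At P5 all points of a carrier lie on 1 side of 0, and at P8 most points lie nearer to 0.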

How the data were processed

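Each of 47 polyA RNA libraries (75 bp single-end) had 1 table of genes. Per the submitters' processing notes the authors used cutadapt 1.16, STAR 2.5.2b and RSEM 1.3.0 on GRCh38. The deposited tables give expected counts and TPM per gene. TPM was used as deposited for levels, and expected counts, of which 9.3% were not whole, were rounded for tests. Symbols came from GENCODE 29 (57447 of 58051 genes matched). Reads were not stated to be counted by strand.

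Tests used edgeR 4.0.16 (R 4.3.3): TMM over all 47 libraries, filterByExpr, quasi-likelihood, Benjamini-Hochberg adjustment over 21649 genes for the 35 whole cultures and 19531 for the 12 fractions, with all conditions of each kind in 1 fit. The differentiation was a block, since each experiment held all conditions, except that differentiation 3 has no P9 library here. Deviations of same-numbered libraries correlated at 0.65 on average between the P5 fractions and 0.78 between the P8 fractions, but at -0.01 between 36h and t0, -0.02 between P5 and P1 and 0.11 between P8 and t0. SE is the log2 fold change over the root of F. All 208 carriers passed the filter in the whole cultures and 206 in the fractions. The fits were tried on simulated counts that had no differentiation effect and less spread than the whole cultures. That trial does not show how well the fits perform on these data. No replicate pair agreed within sampling noise (chi-square per degree of freedom 25.4 or more). Replicates are differentiations of 1 line. The p-values rest on the spread left after the differentiation block, estimated over all conditions of a fit. They do not measure only the spread among the compared libraries. The precision of low genes is set by the depth given in the text.

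Named were the 12 carriers of highest mean level, up to 8 called in each direction per comparison with the same direction in every differentiation, preset examples of each transport group and the 3 on each side of the level threshold; some further called carriers are named, chosen after their values were seen. The members, transport groups and companion lists were chosen with earlier results of these data known. Alternatives were DESeq2 1.42.0, its size factors, no filter, no block, only the compared libraries, each replicate left out, a threshold of 10 TPM, and 4 added after seeing the data. Values of 1 member are not reported here.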

Additional observations from a re-analysis of the deposited data

How the results depend on the processing

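The counts of called carriers differed between the alternatives, and no log2 fold change of a named carrier changed sign in any alternative run (over all fits, 6935 values kept their side of the threshold, 293 lost it and 108 gained it). Without the pairing of libraries by differentiation (no replicate block) the counts were 6 for 36h against t0 (12 with it), 1 for P1 against 36h (2), 10 for P5 against P1 (17) and 0 for P9 and P10 against P8 (8), and 56 for P8 against t0 (61). Fits on only the compared libraries gave 2, 0, 0 and 0 for the first 4 comparisons and 2 for the P5 fractions (0). DESeq2 called 5 for P1 against 36h, 2 for P8 against P5 (0), 14 for P9 and P10 against P8 and 12 for the P5 fractions, and no filter on low counts gave 2 there. An FDR under 5% gave 6 for P1 against 36h, 15 for P9 and P10 against P8 and 11 for the P5 fractions, and a level threshold of 10 TPM gave 1 for P1 against 36h. Leaving out a differentiation in turn gave 0 to 20 for 36h against t0, 0 to 13 for P1 against 36h, 0 to 17 for P5 against P1, 0 to 1 for P8 against P5 and 33 to 70 for P8 against t0. For P9 and P10 against P8 it gave 0 without differentiation 3. Without 1 or 2, P9 holds 1 library and no count is read. Without single libraries, chosen after seeing the data, the count was 10 for P1 against 36h (P1 of differentiation 1), and 19 for P9 and P10 against P8 (P10 of differentiation 1). The cause of these shifts was not tested. Counts for the P8 fractions and for the interaction were 0 in every alternative run. With 3 differentiations and 2 at P9, small changes are not detectable, and large ones with a wide spread can be missed too. An example is *SLC39A8* in P10 against P9 (edgeR, log2 1.98 ± 0.71, adjusted p = 0.332). A count of 0 therefore does not show that no carrier changed. Carriers just over 5 TPM rest on few counts in the shallower libraries.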
